A study of Mus musculus with 4 samples.

Results

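The genes described here are 39 genes of DNA replication and S phase, the part of the cell cycle in which the genome is copied. They cover origin licensing, helicase activation, polymerases, the sliding clamp and its loader, single-strand binding, nucleotide supply, lagging strand joining, chromatin assembly and histone mRNA. A gene was included when a non-control probe carried its name in the scanner files, which held for 38 of the 39, and Gins2 was found under an older clone name through its RefSeq accession. Together they have 54 of the 41174 non-control probes. Each gene was read from its brightest probe, and for all 39 that probe was well above background, by the scanner software's own test, on all 4 arrays, as were 12893 named genes in all. The cells were 3T3-L1, a mouse line of preadipocytes that turn into adipocytes after hormonal induction. On day 0, confluent cells of all 4 groups received insulin (10 μg/mL), dexamethasone (1 μM) and IBMX (0.5 μM), with 0.1% DMSO in every medium. The groups had DMSO alone, 100 μg/mL bilberry extracts, 100 nM delphinidin or 100 nM cyanidin, and the series' design gives day 2 as the day of harvest, while the treatment protocol in the labels names 6 days of treatment. Day 2 was taken as the day of the RNA. There was 1 array for each group and no replicate, so differences are described without a test or p-value, and the small number of arrays limits how precise they are. The labels do not say whether the RNA of a group came from 1 culture or several.

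Before S phase, the proteins Cdc6 and Cdt1 load the ring-shaped MCM complex, the core of the replicative helicase, onto origins, and geminin (Gmnn) holds Cdt1 back which keeps origins from being licensed again within the same cycle. In S phase the helicase is switched on with Cdc45 and the GINS proteins, primase and the polymerases copy the strands, and Pcna, a ring that slides along DNA, tethers the polymerases. Many of these genes are targets of E2F transcription factors, which are held back by the retinoblastoma proteins until cells commit to a new cycle. Confluent 3T3-L1 preadipocytes that receive the hormones re-enter the cell cycle for a short time before they differentiate, a step known as mitotic clonal expansion, and day 2 lies in this period.

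Sequence was no part of the choice of the genes. RefSeq promoter windows of GRCm38.p6, running from 250 bases before to 50 bases after a start site, were at hand for 32 of the 39 genes. The E2F motif was searched as TTTCCCGC, TTTCGCGC, TTTGCCGC or TTTGGCGC on both strands. It was found in a window of 13 of the 32 genes (40.6%), against 704 of all 27025 genes with a window (2.6%). In this paragraph all genes means those with a window, whether or not they were well above background on the arrays. The letters CCAAT, on either strand, were found for 19 of the 32 genes (59.4%) against 41.1% of all genes, and the GC box GGGCGG for 24 (75%) against 38.2%. The letters TTTGAA, which occur in the promoters of genes of the later cell cycle, were found for 4 (12.5%) against 20.2%. A match is a description of the letters and not evidence of binding.

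The 180 bases before the start site are printed for 5 genes, 5′ to 3′, with the E2F letters and CCAAT in capitals. Mcm5, Mcm6 and Cdc6 were chosen because they hold E2F letters and lay over 2-fold above DMSO on the bilberry and delphinidin arrays. Pola1 holds them as well but was near the DMSO level with bilberry, and Rrm2 lacks them in this window but had the highest ratio to DMSO with delphinidin and with cyanidin. The stretches lie at chr8:75109329-75109508 (plus strand), chr1:128359706-128359885 (minus strand), chr11:98907971-98908150 (plus strand), chrX:93632156-93632335 (minus strand) and chr12:24708074-24708253 (plus strand).
Mcm5: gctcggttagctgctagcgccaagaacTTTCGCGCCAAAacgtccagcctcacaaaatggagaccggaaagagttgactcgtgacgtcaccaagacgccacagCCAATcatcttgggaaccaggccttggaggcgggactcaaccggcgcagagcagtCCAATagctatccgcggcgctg
Mcm6: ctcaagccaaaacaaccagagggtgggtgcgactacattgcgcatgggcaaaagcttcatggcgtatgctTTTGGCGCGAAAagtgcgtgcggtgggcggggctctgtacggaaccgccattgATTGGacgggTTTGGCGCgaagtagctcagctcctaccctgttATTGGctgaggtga
Cdc6: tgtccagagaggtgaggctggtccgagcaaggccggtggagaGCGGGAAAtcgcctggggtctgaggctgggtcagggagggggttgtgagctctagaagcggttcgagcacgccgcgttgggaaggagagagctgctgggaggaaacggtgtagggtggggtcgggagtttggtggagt
Pola1: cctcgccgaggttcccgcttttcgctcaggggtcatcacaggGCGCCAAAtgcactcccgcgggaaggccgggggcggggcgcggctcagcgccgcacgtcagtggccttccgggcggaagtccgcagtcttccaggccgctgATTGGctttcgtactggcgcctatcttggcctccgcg
Rrm2: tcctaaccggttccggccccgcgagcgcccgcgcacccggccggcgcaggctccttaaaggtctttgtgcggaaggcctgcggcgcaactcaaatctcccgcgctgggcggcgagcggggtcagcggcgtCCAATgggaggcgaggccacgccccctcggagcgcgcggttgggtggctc

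In Mcm5 a pair of E2F matches on opposite strands overlaps in the run TTTCGCGCCAAA, which begins 153 bases before the start site, and Mcm6 has the like run TTTGGCGCGAAA, which begins 110 bases before it. Cdc6 and Pola1 each have a lone match that begins 138 bases before the start. The median ratios to DMSO of the genes with and without these letters lay close together. For the 13 genes with E2F letters the median log2 ratio was 0.98 for bilberry, 0.86 for delphinidin and 0.57 for cyanidin. For the 19 genes without them it was 0.98, 0.99 and 0.58.

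A level below is a signal as a multiple of its array's 75th percentile. Levels were not compared between genes, since probes differ in brightness. The percentile was 861 for DMSO, 576 for bilberry, 1009 for delphinidin and 1016 for cyanidin, and 22779 to 24942 probes per array were well above background. Over the 12893 genes the median log2 ratio to DMSO was 0.16 for bilberry, -0.02 for delphinidin and 0.01 for cyanidin. The spike-in control RNAs, which are added from outside the cells, had an unscaled median signal 0.94 higher (log2) with bilberry than with DMSO, and scaling to them shifted every bilberry ratio by -1.51. Under that scaling 2 of the 39 genes were above DMSO with bilberry, as were 0.768% of all genes, whose median moved to -1.34. All 39 stayed above DMSO for delphinidin and for cyanidin, where 79.4% and 78.9% of all genes were above it. Since the shift is the same for every gene, 36 of the 39 lay above the all-gene median for bilberry under either scaling. The bilberry ratios below therefore hold relative to the 75th percentile of each array, a scaling under which the median of all genes was 0.16. A larger share of cells in S phase and more of these RNAs per cell cannot be told apart in RNA of whole cultures.

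Replication genes stood higher on the 3 treated arrays than on the DMSO array, except under spike-in scaling of the bilberry array. With bilberry, 38 of 39 were above DMSO (of all genes, 61.5%), 16 were over 2-fold higher (of all genes, 4.06%) and 0 were over 2-fold lower (of all genes, 6.58%). The gene below DMSO was Pola1. With quantile normalization Prim1 was below DMSO as well, which left 37 above. In that setting 9 genes were over 2-fold higher with bilberry, and no share of all genes is given for it. Mcm6, Mcm7, Mcm10, Pole, Pcna, Rfc5 and Chaf1a then lay below the threshold. With delphinidin, 39 of 39 were above DMSO (of all genes, 47.5%), 15 over 2-fold (1.19%), and none was over 2-fold lower (1.52%). With cyanidin, 39 of 39 were above DMSO (51.4% of all genes), but only 1, Rrm2, was over 2-fold higher (0.605%), and 15 were over 1.5-fold higher (3.02%). None was over 2-fold lower with cyanidin, where 1.39% of all genes were. These counts move with the scaling: under spike-in scaling 0 of the 39 were over 2-fold higher with bilberry, where 0.0931% of all genes were. It put 29 over 2-fold higher with delphinidin (2.63%) and 7 with cyanidin (1.38%). All 3 comparisons share the DMSO array, so a deviation of that array enters each of them.

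The median log2 ratio of the 39 genes was 0.90 with bilberry (1.87-fold), 0.90 with delphinidin (1.87-fold) and 0.55 with cyanidin (1.47-fold). At 1.5-fold, 30 genes were higher under bilberry (18.7% of all genes) and 34 under delphinidin (4.2%). Relative to the median of all genes the medians were 0.74, 0.92 and 0.54. The spread over the genes was wider with bilberry, from -0.05 to 1.70, than with delphinidin, from 0.35 to 1.51, or with cyanidin, from 0.17 to 1.11. The SD of log2 ratios over all genes was also wider with bilberry, at 0.66, against 0.39 with delphinidin and 0.37 with cyanidin. Just inside the 2-fold threshold with delphinidin lay Chaf1a at 1.00 and Tyms at 1.00, and just outside it Rpa2 at 0.99 and Mcm2 at 0.99, so the counts of 2-fold genes divide values that are close together.

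**Figure D1:**
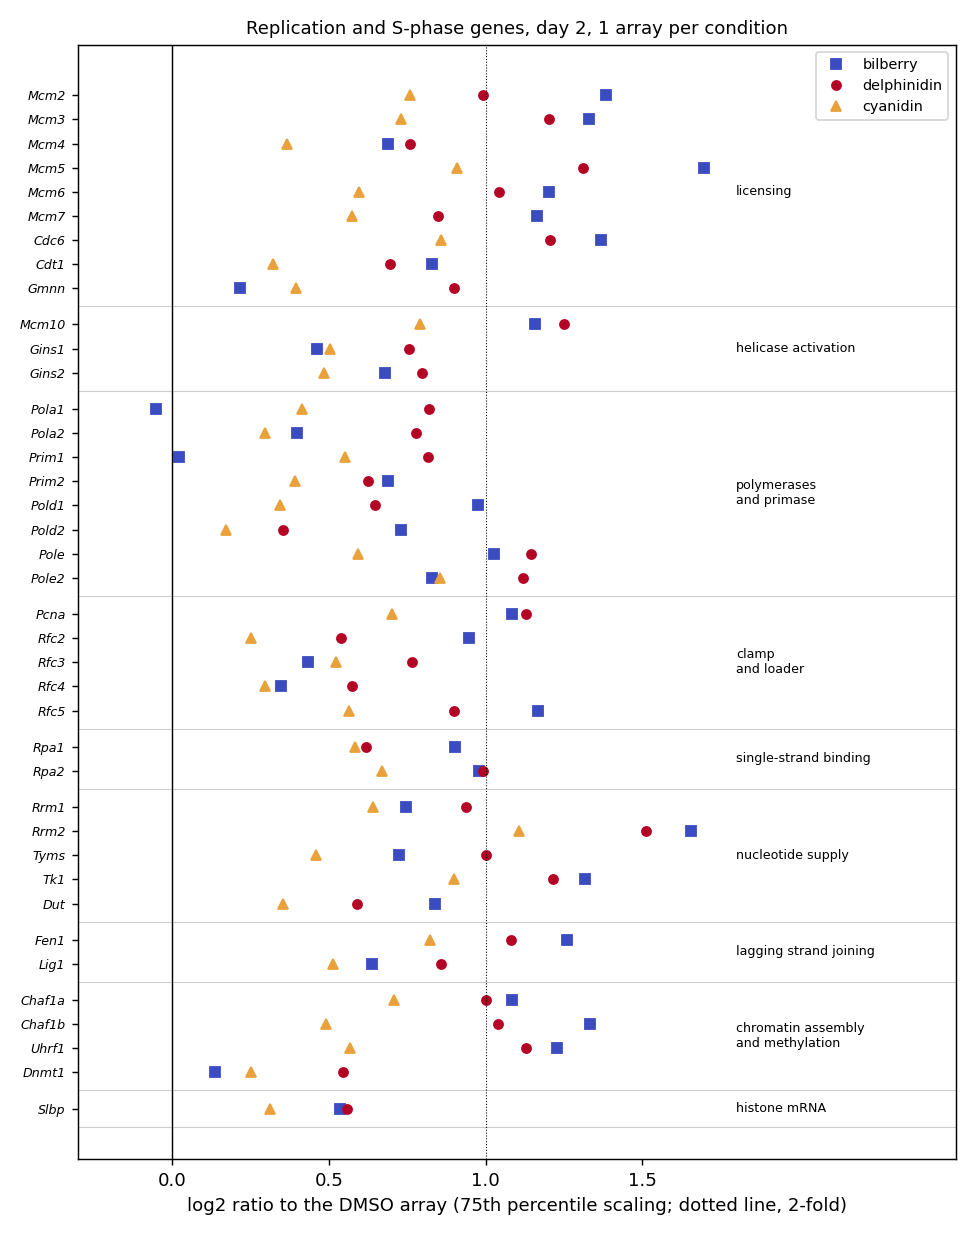
Log2 ratio of each replication and S-phase gene to the DMSO array (x axis), with genes in rows grouped by role, for bilberry (squares), delphinidin (circles) and cyanidin (triangles), 1 array each, and the 2-fold level as a dotted line. All delphinidin and cyanidin points lie right of 0, each delphinidin point lies right of its cyanidin point, and the bilberry points reach from -0.05 for Pola1 to 1.70 for Mcm5. Under spike-in scaling 2 of the 39 bilberry points would lie right of 0.

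**Figure D2:**
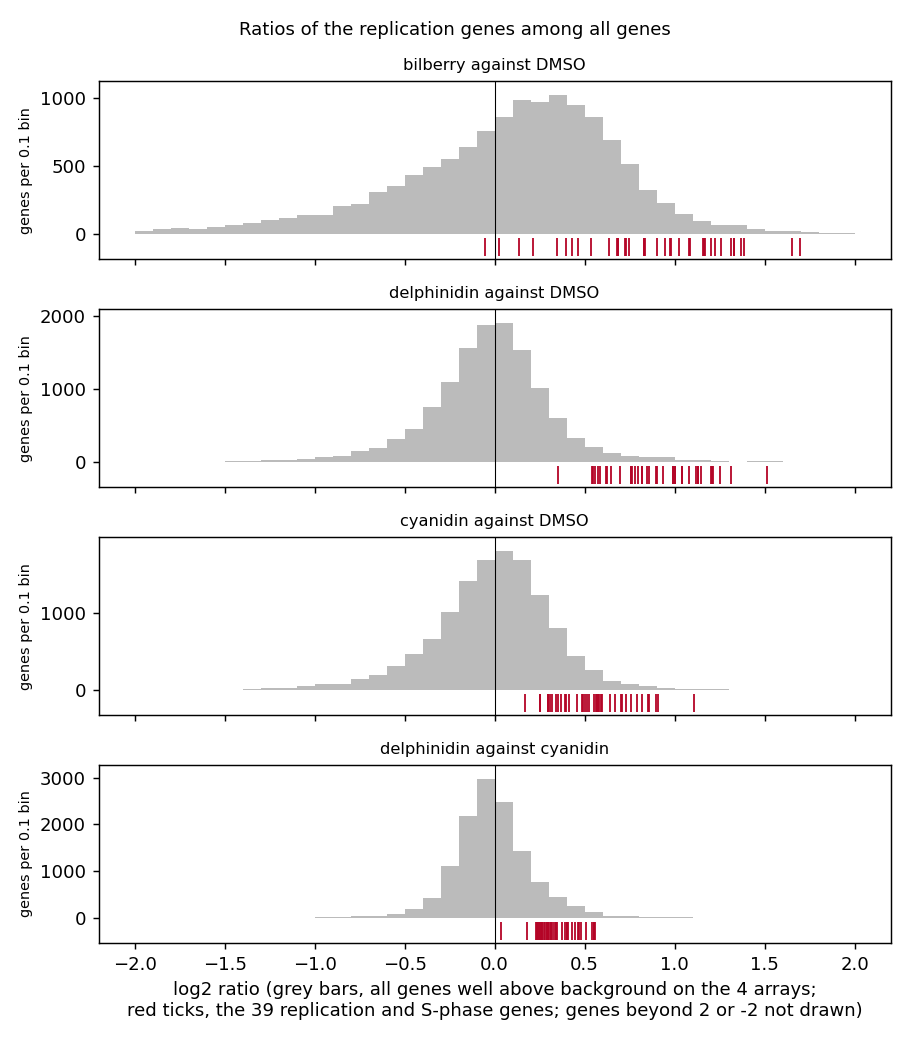
Number of genes (y axis) by log2 ratio (x axis) for the 12893 genes well above background on the 4 arrays, in bins of 0.1 and drawn between -2 and 2, in each of 4 comparisons, with the 39 replication genes as red ticks below the bars. The ticks lie between -0.05 and 1.70 with bilberry, where 36 of 39 are above the all-gene median of 0.16, between 0.35 and 1.51 with delphinidin, between 0.17 and 1.11 with cyanidin and between 0.04 and 0.56 for delphinidin against cyanidin.

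The error that these arrays allow to be measured is that of spots and of probes, not that of cultures. The Pcna probe was spotted 10 times on each array, of which 7 or 8 spots were not marked by the software. Its level was 28.2 ± 0.532 (SD, n = 7 spots) for DMSO, 59.9 ± 0.889 (SD, n = 8 spots) for bilberry, 61.8 ± 0.808 (SD, n = 8 spots) for delphinidin and 45.9 ± 0.645 (SD, n = 8 spots) for cyanidin. The spots of different arrays did not overlap except between bilberry and delphinidin. Over 140 probes with 10 spots, each above background throughout, the median SD between spots was 0.0300 to 0.0374 on the log2 scale. For 7 of the genes a further probe was well above background on all 4 arrays. Its ratio to DMSO differed from that of the brighter probe by a median of 0.0716 for bilberry, 0.0380 for delphinidin and 0.0485 for cyanidin (log2), and by at most 0.261, for Cdc6 with delphinidin. Both probes of each of the 7 genes were above DMSO in all 3 comparisons.

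**Figure D3:**
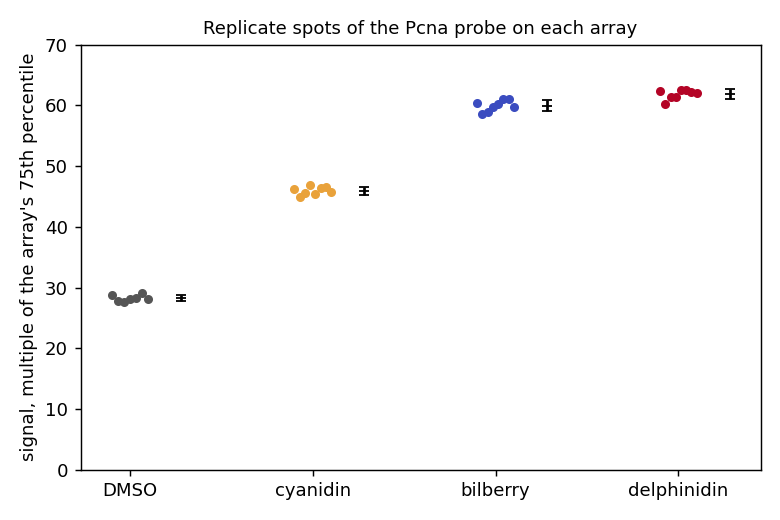
Level of the Pcna probe (y axis, multiple of the array's 75th percentile) at each unmarked replicate spot on the 4 arrays, with the mean and SD of the 7 or 8 spots beside them. The DMSO spots lie between 27.6 and 29.0, the cyanidin spots between 44.9 and 46.8, and the bilberry and delphinidin spots between 58.6 and 62.5.

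Of the 9 licensing genes, 6 were over 2-fold above DMSO under bilberry, 4 under delphinidin and 0 under cyanidin (of all genes, 4.06%, 1.19% and 0.605%), with median log2 ratios of 1.20, 0.99 and 0.60. Mcm5, a subunit of the helicase ring whose probe lies at chr8:78023523-78023583 of mm8 (the build of the scanner files), had levels of 3.75 on the DMSO array, 12.2 for bilberry, 9.32 for delphinidin and 7.05 for cyanidin. This is 3.25-fold, 2.48-fold and 1.88-fold of the DMSO level, and its bilberry ratio was the highest of the 39, though below that of Rrm2 with quantile normalization (1.48 against 1.52, log2). Mcm6, another ring subunit, read 30.6 on the DMSO array, 70.5 for bilberry, 63.1 for delphinidin and 46.3 for cyanidin, or 2.30-fold, 2.06-fold and 1.51-fold of DMSO. Mcm2 read 2.37 on the DMSO array, 6.19 for bilberry, 4.71 for delphinidin and 4.01 for cyanidin. For Mcm3 the levels were 6.98 on the DMSO array, 17.6 for bilberry, 16.1 for delphinidin and 11.6 for cyanidin, and its dimmer probe had log2 ratios of 1.19, 1.21 and 0.83. Mcm7 stood at 15.7 on the DMSO array, 35.1 for bilberry, 28.2 for delphinidin and 23.3 for cyanidin. In each of these ring subunits DMSO was the lowest array, except against bilberry under spike-in scaling, where Mcm2, Mcm3, Mcm6 and Mcm7 turned. Bilberry was the highest for the probes used, but not for the dimmer Mcm3 probe. With quantile normalization delphinidin stood above bilberry for Mcm6 (1.04 against 0.89, log2) and for Mcm3 (1.17 against 1.11). Under spike-in scaling delphinidin stood above bilberry for all of these subunits, such as Mcm5 (1.57 against 0.19). Mcm4, the remaining subunit, had smaller log2 ratios of 0.69 under bilberry, 0.76 under delphinidin and 0.37 under cyanidin.

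Cdc6, the ATPase that brings the ring to the origin, read 0.411 on the DMSO array, 1.06 for bilberry, 0.950 for delphinidin and 0.746 for cyanidin, or 2.58-fold, 2.31-fold and 1.81-fold of DMSO, and its dimmer probe had log2 ratios of 1.34, 1.47 and 0.81. Cdt1, its partner in loading, had log2 ratios of 0.83 under bilberry, 0.70 under delphinidin and 0.32 under cyanidin. Gmnn, the inhibitor of Cdt1, was highest with delphinidin, with levels of 5.64 on the DMSO array, 6.56 for bilberry, 10.5 for delphinidin and 7.42 for cyanidin. Its bilberry ratio of 0.22 lay close to the 0.16 of all genes, while its delphinidin ratio was 0.90.

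Mcm10, which helps to start the loaded helicase, read 2.95 on the DMSO array, 6.59 for bilberry, 7.02 for delphinidin and 5.10 for cyanidin, or 2.23-fold, 2.38-fold and 1.73-fold of DMSO. Delphinidin was its highest array, followed by bilberry. Gins1 and Gins2, subunits of the GINS complex, did not pass 2-fold. Their log2 ratios were 0.46 under bilberry, 0.76 under delphinidin and 0.50 under cyanidin for Gins1, and 0.68 under bilberry, 0.80 under delphinidin and 0.48 under cyanidin for Gins2.

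Among the 8 polymerase and primase genes, 1 passed 2-fold under bilberry, 2 under delphinidin and 0 under cyanidin (of all genes, 4.06%, 1.19% and 0.605%). The catalytic subunit of polymerase epsilon, Pole, which copies the leading strand, read 2.37 on the DMSO array, 4.82 for bilberry, 5.23 for delphinidin and 3.56 for cyanidin, or 2.04-fold, 2.21-fold and 1.51-fold of DMSO. With the mean over its probes the log2 ratios of Pole were 0.84 for bilberry and 0.52 for delphinidin. That mean includes a further probe that was well above background on none of the arrays. Its partner Pole2 read 0.209 on the DMSO array, 0.371 for bilberry, 0.454 for delphinidin and 0.378 for cyanidin, and passed 2-fold with delphinidin alone (2.17-fold), though not with normexp background correction, at 0.92 (log2). Pold1, the catalytic subunit of polymerase delta, which copies the lagging strand, had levels of 5.00 on the DMSO array, 9.84 for bilberry, 7.83 for delphinidin and 6.35 for cyanidin. Its bilberry ratio was 1.97-fold, just short of the threshold, and another probe that was marked on the delphinidin array gave 2.03-fold. Pold2, its small subunit, read 2.45 on the DMSO array, 4.06 for bilberry, 3.13 for delphinidin and 2.76 for cyanidin, the lowest delphinidin ratio of the 39 at 1.28-fold.

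Primase and polymerase alpha lay down and extend the primers. Pola1 read 1.65 on the DMSO array, 1.59 for bilberry, 2.91 for delphinidin and 2.20 for cyanidin, so that bilberry was the lowest array, at -0.05 (log2) to DMSO, and delphinidin the highest, at 0.82. Prim1, the catalytic primase subunit, read 4.46 on the DMSO array, 4.53 for bilberry, 7.85 for delphinidin and 6.54 for cyanidin, with 0.02 for bilberry and 0.82 for delphinidin. For both, bilberry and DMSO lay close together and below both anthocyanidins. The partner subunits did not share this order and were above DMSO on each treated array, with log2 ratios of 0.40 under bilberry, 0.78 under delphinidin and 0.30 under cyanidin for Pola2, and 0.69 under bilberry, 0.63 under delphinidin and 0.39 under cyanidin for Prim2. The mean over all Pola2 probes lay below DMSO with delphinidin and cyanidin, but its further probes were well above background on none of the arrays.

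Pcna, whose spots are given above, was 2.12-fold of DMSO for bilberry, 2.19-fold for delphinidin and 1.63-fold for cyanidin. Of the genes for the loader that opens the ring, Rfc5 passed 2-fold with bilberry, with levels of 4.43 on the DMSO array, 9.96 for bilberry, 8.27 for delphinidin and 6.55 for cyanidin. Rfc2 had a bilberry log2 ratio of 0.95 and its dimmer probe 0.91, while its ratios with delphinidin and cyanidin were 0.54 and 0.25. Rfc3 and Rfc4 had the opposite order, with 0.76 and 0.57 for delphinidin above 0.43 and 0.35 for bilberry. The large subunit Rfc1, which is not among the 39 genes, was at -1.44 with bilberry, where the 4 small subunits ran from 0.35 to 1.17.

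Rpa1 and Rpa2 encode subunits of the protein that coats single-stranded DNA. Rpa1 read 6.26 on the DMSO array, 11.7 for bilberry, 9.61 for delphinidin and 9.38 for cyanidin. Delphinidin and cyanidin were nearly level here, with a log2 ratio of 0.04 between them, the smallest of the 39. Rpa2 lay just short of 2-fold with bilberry and delphinidin, at 0.98 and 0.99, and its dimmer probe just past it, at 1.05 and 1.01.

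All 5 genes of nucleotide supply were over 1.5-fold above DMSO with bilberry and with delphinidin, as were 3 with cyanidin (of all genes, 18.7%, 4.2% and 3.02%). Rrm2, the subunit of ribonucleotide reductase whose level follows the cell cycle, was the gene with the largest ratio to DMSO with delphinidin and cyanidin. Its probe at chr12:25302833-25302889 of mm8 read 1.87 on the DMSO array, 5.90 for bilberry, 5.34 for delphinidin and 4.03 for cyanidin, which is 3.15-fold, 2.85-fold and 2.15-fold of DMSO. Rrm1, the large subunit of the same enzyme, had lower log2 ratios of 0.74 under bilberry, 0.94 under delphinidin and 0.64 under cyanidin. Tk1, the thymidine kinase of the salvage route, read 3.23 on the DMSO array, 8.03 for bilberry, 7.48 for delphinidin and 6.01 for cyanidin, or 2.49-fold, 2.32-fold and 1.86-fold of DMSO. Tyms, which makes thymidylate anew, had levels of 7.47 on the DMSO array, 12.3 for bilberry, 15.0 for delphinidin and 10.3 for cyanidin, with delphinidin highest at 2.00-fold, a further probe at 1.91-fold and a log2 ratio of 0.97, short of 2-fold, with quantile normalization. Dut, which clears dUTP, read 13.4 on the DMSO array, 23.9 for bilberry, 20.1 for delphinidin and 17.1 for cyanidin and stayed under 2-fold on each array.

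Fen1 and Lig1 trim and seal the fragments of the lagging strand. Fen1 read 1.62 on the DMSO array, 3.88 for bilberry, 3.42 for delphinidin and 2.86 for cyanidin. This is 2.40-fold, 2.11-fold and 1.77-fold of DMSO, with bilberry highest except under spike-in scaling. Lig1 read 10.2 on the DMSO array, 15.9 for bilberry, 18.5 for delphinidin and 14.5 for cyanidin and stayed under 2-fold, with delphinidin highest.

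Chaf1a and Chaf1b, subunits of the factor that places new histones behind the fork, passed 2-fold with bilberry and delphinidin, but Chaf1a did not with quantile normalization, at 0.90 and 0.96 (log2). Chaf1a read 3.36 on the DMSO array, 7.13 for bilberry, 6.74 for delphinidin and 5.50 for cyanidin. Chaf1b read 2.83 on the DMSO array, 7.13 for bilberry, 5.83 for delphinidin and 3.98 for cyanidin, and its cyanidin ratio of 1.41-fold was well below its bilberry ratio of 2.52-fold. Uhrf1, which recognises newly copied DNA by its methylation and brings in the maintenance methyltransferase, had levels of 2.38 on the DMSO array, 5.56 for bilberry, 5.20 for delphinidin and 3.52 for cyanidin, or 2.34-fold, 2.19-fold and 1.48-fold of DMSO. Dnmt1, the methyltransferase itself, had log2 ratios of 0.14 under bilberry, 0.55 under delphinidin and 0.25 under cyanidin, the bilberry value being below the median of all genes. Slbp, which binds the ends of histone mRNAs, read 8.54 on the DMSO array, 12.4 for bilberry, 12.6 for delphinidin and 10.6 for cyanidin, an increase over DMSO of under 1.5-fold on each treated array.

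Delphinidin and cyanidin are anthocyanidins that differ by a hydroxyl group on the B ring, which delphinidin has in addition, and both were given at 100 nM from day 0, so their arrays can be set against each other without the DMSO array. This is the only pair of single anthocyanidins on the arrays, and the paper states that the bilberry extracts contain anthocyanidins as well. All 39 replication genes were higher with delphinidin than with cyanidin, as were 44.2% of all genes. This was not particular to them, since all 19 genes of mitosis described below were higher too, with a median log2 ratio of 0.28. For the 39 replication genes the median log2 ratio was 0.31 (1.24-fold), against -0.03 for all genes. None of the 39 passed 1.5-fold at its brightest probe, as did 1.57% of all genes upward, or 2-fold (0.411%). The ratios were largest for Uhrf1 at 0.56 and Pole at 0.55, and smallest for Rpa1 at 0.04 and Pold2 at 0.18. Dimmer probes of 3 genes did pass 1.5-fold: a probe of Cdc6 stood 1.58-fold higher with delphinidin, and a probe of Uhrf1, whose spot on the DMSO array was marked and left out, 1.69-fold higher. The third was a probe of Tyms that was well above background on only 2 of the 4 arrays. Its levels were 0.0175 for delphinidin and 0.00757 for cyanidin, so its fold is not read as a change. For Pcna the spots of the arrays were apart, with a lowest delphinidin spot of 60.2 and a highest cyanidin spot of 46.8. Where a gene had a further probe well above background, the probes were on the same side of 0 for all 7 genes and differed by at most 0.310, for Cdc6. Of the 8 adipocyte markers described below, 0 were higher with delphinidin than with cyanidin (44.2% of all genes), with a median log2 ratio of -0.23. Of the 8 preadipocyte markers 5 were higher, with a median of 0.08. The part of these markers in the difference was not tested. With 1 array per compound no interval of the difference between the compounds can be given, and a difference between cultures or arrays cannot be told apart from a difference between compounds.

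The median log2 ratio of the 39 genes to DMSO was 0.90 for bilberry and 0.90 for delphinidin, but relative to all genes it was 0.74 and 0.92. Set directly against delphinidin, 20 of the 39 genes were higher with bilberry (64.3% of all genes), with a median log2 ratio of 0.06 against 0.18 for all genes, and 11 of the 39 lay above that all-gene median. No gene was over 1.5-fold higher with bilberry, where 14.7% of all genes were, and 3 were over 1.5-fold lower, where 10.2% of all genes were. These were Pola1 at -0.87, Prim1 at -0.79 and Gmnn at -0.68. The highest ratios were those of Rfc2 at 0.41, Mcm2 at 0.39 and Mcm5 at 0.39. Against cyanidin, 32 of 39 were higher with bilberry (63.2% of all genes), 10 of them over 1.5-fold (14.2%). Spike-in scaling shifted the ratios to DMSO by -1.51 for bilberry, 0.26 for delphinidin and 0.24 for cyanidin, alike for all genes. Under it none of the 39 would stay higher with bilberry than with delphinidin or cyanidin.

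**Figure D4:**
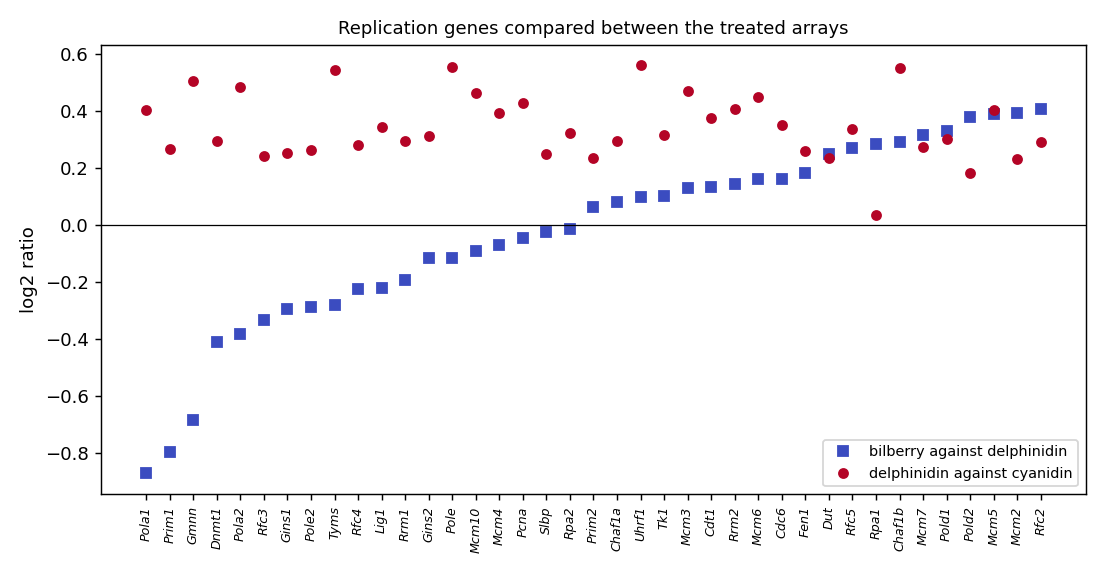
Log2 ratio (y axis) of each replication gene (x axis, ordered by its bilberry value) between treated arrays, for bilberry against delphinidin (squares) and delphinidin against cyanidin (circles), 1 array each. The circles all lie above 0, between 0.04 and 0.56, while the squares run from -0.87 for Pola1 to 0.41 for Rfc2. Under spike-in scaling all squares would lie below 0.

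Other genes of the same processes were counted from a list of 58, of which 56 had a value and all 56 were well above background on the 4 arrays. With delphinidin 52 of 56 were above DMSO (of all genes, 47.5%) and 11 over 2-fold higher (1.19%), with a median log2 ratio of 0.59. With cyanidin 51 were above DMSO (51.4%) and none was over 2-fold higher (0.605%), with a median of 0.37. With bilberry 41 were above DMSO (61.5%), 8 over 2-fold higher (4.06%) and 2 over 2-fold lower (6.58%), with a median of 0.34. Between the anthocyanidins 45 of 56 were higher with delphinidin (44.2% of all genes). The genes over 2-fold lower with bilberry were Top1, a topoisomerase, at -2.09, and Rfc1, the large loader subunit, at -1.44, while with delphinidin they were at 0.00 and 0.26.

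Apart from E2f3, Tfdp1 and Cdk2, the genes named from that list are the 10 with the largest ratios past 2-fold. E2f8, an E2F factor that represses its targets, had log2 ratios of 1.28 under bilberry, 1.46 under delphinidin and 1.00 under cyanidin, and its relative E2f7 had 1.30 under bilberry, 1.19 under delphinidin and 0.57 under cyanidin. E2f1, an activator, stood at 1.24 under bilberry, 0.61 under delphinidin and 0.38 under cyanidin, but another activator, E2f3, at 0.13 under bilberry, 0.13 under delphinidin and -0.16 under cyanidin. The E2F partner Tfdp1 and the kinase Cdk2, chosen like E2f3 after their values were seen, were at 0.07 and -0.11 with bilberry and at 0.39 and 0.55 with delphinidin. Ccne1, a cyclin that drives entry into S phase, was at 1.34 under bilberry, 0.94 under delphinidin and 0.76 under cyanidin. Ccne2, the other cyclin E, was at 1.07 with delphinidin but at -0.06 with bilberry and -0.14 with cyanidin, and it was the only gene of the list over 2-fold higher with delphinidin than with cyanidin, at 1.22. Chtf18, part of an alternative clamp loader, had 1.44 under bilberry, 1.05 under delphinidin and 0.53 under cyanidin, and Orc1, a subunit of the origin recognition complex, had 0.95 under bilberry, 1.16 under delphinidin and 0.83 under cyanidin. Cdc25a, a phosphatase that activates cyclin-dependent kinases, had 1.16 under bilberry, 0.23 under delphinidin and 0.69 under cyanidin.

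Genes of mitosis, from a list of 20 of which 19 had a value, were mostly above DMSO with the anthocyanidins but not with bilberry. With delphinidin 19 of 19 were above DMSO (of all genes, 47.5%), with a median log2 ratio of 0.77, and with cyanidin 18 of 19 (51.4%), with a median of 0.48. With bilberry 8 of 19 were above DMSO (61.5%) and the median was -0.07, but the genes went both ways. Over 2-fold higher were 2 (4.06%), Aurkb at 1.15 and Cdk1, and 7 were over 1.5-fold higher (18.7%). Another 3 were over 2-fold lower (6.58%). These were Mki67, the gene of the Ki-67 proliferation antigen, at -3.32, and the kinetochore genes Cenpe at -3.48 and Cenpf at -2.86. Cdk1, the kinase that drives mitosis, was at 1.04 with bilberry and 0.91 with delphinidin. Under spike-in scaling none of the 19 mitotic genes and none of the 56 other replication genes was above DMSO with bilberry, where 0.768% of all genes were.

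The labels call the cells adipocytes. All 8 adipocyte markers and all 8 fibroblast or preadipocyte markers were well above background on the 4 arrays, while the 3 endothelial markers, and Ptprc and Adgre1 of the 4 macrophage markers, were so on none. The summed level of the adipocyte markers was 411 on the DMSO array, 293 for bilberry, 452 for delphinidin and 495 for cyanidin, and that of the preadipocyte markers was 845 on the DMSO array, 961 for bilberry, 805 for delphinidin and 741 for cyanidin. These sums are set by the brightest probes, such as Fabp4 and Col1a2, and do not stand for the lists. Of the adipocyte markers 5 of 8 were above DMSO for bilberry, 5 for delphinidin and 6 for cyanidin (of all genes, 61.5%, 47.5% and 51.4%), with median log2 ratios of 0.09, 0.13 and 0.31. Of the preadipocyte markers 3, 4 and 0 of 8 were above DMSO, against the same shares of all genes, with medians of -0.06, -0.06 and -0.23. Single markers lay further from 0. With bilberry the adipocyte markers Slc2a4, Adipoq and Fabp4 were at -1.54, -1.07 and -0.95, and the highest was Cebpa at 0.50. The preadipocyte marker Thy1 was at -1.20 for bilberry, -0.94 for delphinidin and -0.87 for cyanidin, while Col1a2 was at 0.54 for bilberry. For the macrophage list, with Cd68 and Csf1r above background, the sum lay between 0.0912 and 0.120, and for the epithelial list, with Krt8 above background, between 0.0319 and 0.0936. The part of these lists in the replication result was not tested. The probes of 16 of the 39 genes lie in a band across the middle rows of the array, in which 3.38% of all genes were over 2-fold apart from DMSO in either direction with delphinidin and 2.73% with cyanidin, against 2.19% and 1.42% in the other rows. With bilberry the shares were 10.7% and 10.6%, and for delphinidin against cyanidin they were 1.25% and 0.416%. Without these 16 genes the median log2 ratio of the other 23 to DMSO was 0.84 for bilberry, 0.90 for delphinidin and 0.55 for cyanidin. Their median for delphinidin against cyanidin was 0.295.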

How the data were processed

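RNA of 4 samples was measured on 4 Agilent whole-genome arrays labelled with Cy3, from 0.5 μg of total RNA each. The deposited values are intensities: the authors' scanner files hold Feature Extraction 9.5.1.1 output (version from the submitters' processing notes), in which the processed signal is already background-subtracted, and a further deposited table repeats these signals. Control spots and spots marked by the software as uneven or outlying were left out here, signals were divided by the 75th percentile of 43379 non-control spots and set on the log2 scale, and spots of a probe were averaged. A gene was read from its brightest probe among those valued on every array. Names came from the files for the replication genes and from RefSeq accessions for most others. Genes well above background on all arrays formed the background. With 1 array per group no test was possible, so over 2-fold is used as a description, and the spread between spots is technical. The DMSO array is shared by 3 comparisons. Levels on the 4 arrays were given for genes past 2-fold, for the 2 largest and 2 smallest ratios of delphinidin to cyanidin, and for the brightest probe of each role, and a few more genes were added after their values were seen. The genes, the lists and the alternatives were chosen with earlier results of these data known. Scripts were tested on simulated data. Python 3.11.15, numpy 2.4.6, pandas 2.3.3, R 4.3.3 and limma 3.58.1 (for the normexp alternative only) were used. Probe positions are those of mm8 in the files, and promoters are from RefSeq, GRCm38.p6.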

Additional observations from a re-analysis of the deposited data

Results flagged for a closer look

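The spike-in control RNAs, which served only for the spike-in scaling, differed between arrays. Over 9 controls their median processed signal was 0.94 higher (log2) with bilberry than with DMSO, with single controls between 0.10 and 1.04 higher. On the delphinidin and cyanidin arrays the median differed from DMSO by -0.04 and 0.01.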

How the results depend on the processing

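No paired analysis was possible because each group had 1 array. Delphinidin ratios to cyanidin were above 0 for all 39 genes under each background correction, scaling and choice of spots, probes or table. Delphinidin and cyanidin ratios to DMSO were too, except with the mean over all probes of a gene. It put Pola2 below DMSO with delphinidin and Mcm4 and Pola2 with cyanidin. The further probes of these genes were well above background on none of the arrays. Relative to all genes, the bilberry median of 0.74 became 0.63 with normexp background correction, 0.63 with quantile normalization, 0.54 without a filter on detection and 0.67 outside the middle rows. The delphinidin median of 0.92 became 0.85 with the mean over probes and 1.04 without the filter, and the cyanidin median of 0.54 became 0.68 without it. The 16 genes over 2-fold higher with bilberry became 9 with quantile normalization, 0 with spike-in scaling, 10 of 23 outside the rows and 30 at 1.5-fold. With delphinidin 15 became 29 with spike-in scaling, 9 of 23 outside the rows and 34 at 1.5-fold, and with cyanidin 1 became 7 with spike-in scaling and 15 at 1.5-fold. Outside the rows, 10.6% of all genes with bilberry and 2.19% with delphinidin were over 2-fold apart from DMSO in either direction. With quantile normalization the bilberry median of all genes was 0.08, and no share of all genes past 2-fold is given for that setting. Spike-in scaling put 8 of the 39 genes over 2-fold lower with bilberry, where the median of all genes, at -1.34, was itself past 2-fold lower. It turned 36 of the 39 below DMSO, where 0.768% of all genes were above DMSO. The median relative to all genes stayed at 0.74. Among the 36 were 14 of the 16 that were over 2-fold higher: Cdc6 to -0.14, Chaf1a to -0.42, Chaf1b to -0.17, Fen1 to -0.24, Mcm10 to -0.35, Mcm2 to -0.12, Mcm3 to -0.17, Mcm6 to -0.30, Mcm7 to -0.34, Pcna to -0.42, Pole to -0.48, Rfc5 to -0.34, Tk1 to -0.19 and Uhrf1 to -0.28. The causes were not tested. The smallest ratios, such as the 0.04 of Rpa1 between delphinidin and cyanidin, are near the spread between spots. No replicate could be left out.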
